A study of Mus musculus with 24 samples.

Results

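The 10 genes for serotonin receptors that are described here are Htr1a, Htr1b, Htr1d, Htr1f, Htr2a, Htr2c, Htr3a, Htr4, Htr6 and Htr7. They were picked by name from a table of raw read counts with 24079 genes, and all 10 were found there once. The data came from nucleus accumbens (Acb) and dorsal striatum (DS) of wild-type mice and of rpS6P-/- knockin mice, in which every phosphorylatable serine of ribosomal protein S6 is replaced by alanine. For each region and genotype, RNA was taken from the whole lysate and from heavy polysomal fractions, which hold the mRNAs that carry several ribosomes. The 8 groups had 3 libraries each, 24 in all. Both genotypes were untreated littermates of either sex on a mixed C57Bl/6, Sv129 and ICR background, and their age is not given in the sources used here. The knockin is constitutive and is carried by every cell type, and each replicate was a pool of mice, so that single animals cannot be seen.

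Serotonin reaches the striatum through fibres of the raphe nuclei, whose neurons make the transmitter, while the receptors are made by the striatal cells and by the cells whose axons end there. The Htr1 receptors couple to inhibitory G proteins, the Htr2 receptors to Gq and phospholipase C, and Htr4, Htr6 and Htr7 to stimulatory G proteins and adenylyl cyclase. Htr3a encodes a subunit of a cation channel gated by serotonin. Htr2c mRNA is known for RNA editing in the part that encodes an intracellular loop, and in the brain it is abundant in choroid plexus as well as in neurons.

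Libraries held 9280589 to 34703044 assigned reads, with a median of 16678553. Reads of Bc1, a short noncoding RNA of neurons, were 15.2 to 26.1% of all reads in lysates but 0.897 to 3.85% in heavy fractions. Rps6, whose coding change cannot be seen in read counts, was at 269 to 496 CPM, the reads of a gene scaled to equal library size, in wild-type and 303 to 448 CPM in rpS6P-/- libraries. Ppp1r1b, a marker of medium spiny neurons, ranged from 836 to 1827 CPM in the Acb and from 967 to 2338 CPM in the DS, and the 10 measured genes of this list summed to 4024 to 6700 CPM and 4356 to 7092 CPM. Slc17a7, the vesicular glutamate transporter of cortical excitatory neurons, was at 51.5 to 162 CPM in the Acb and at 464 to 734 CPM in the DS. The 8 cortical genes summed to 71.2 to 220 CPM in the Acb and to 753 to 1056 CPM in the DS. The 4 thalamic genes, with Tcf7l2 the most abundant, summed to 40.5 to 61.3 CPM in the Acb and 17.1 to 24.8 CPM in the DS. Serotonin neuron transcripts were near 0, with the sum of Tph2, Slc6a4 and Fev at 0 to 2.08 CPM in the Acb and 0 to 1.74 CPM in the DS. In bulk tissue, a lower level can mean fewer cells of a type or less RNA per cell, and the data cannot tell these apart.

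Read support differed widely among the receptors. Htr2c had 41135 reads over the 24 libraries, more than all the other members, which had 6122 (Htr1a), 4767 (Htr1d), 4470 (Htr1b), 4063 (Htr7), 4041 (Htr2a), 2308 (Htr4), 1068 (Htr1f), 953 (Htr3a) and 747 (Htr6). The last 3 were close to the detection limit in part of the libraries. Htr6 had 0 reads in DS wild-type heavy replicate 1 and in DS rpS6P-/- heavy replicate 3, which allows up to 0.278 and 0.133 CPM (3 reads). Htr1f had 0 reads in Acb rpS6P-/- lysate replicate 2 and Htr3a in Acb rpS6P-/- lysate replicate 3, which allows up to 0.329 and 0.313 CPM. These limits cover counting error only.

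**Figure D1:**
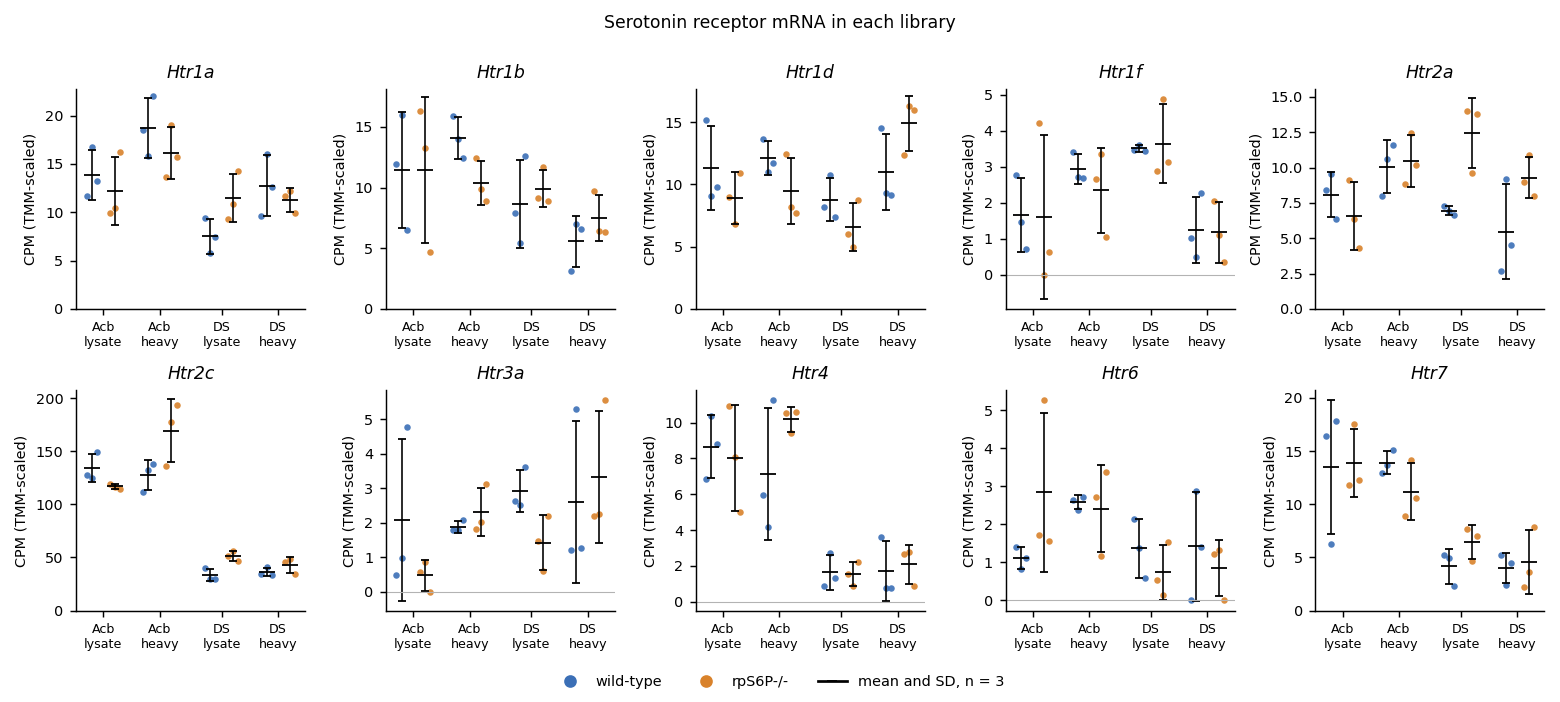
Level of each receptor mRNA in CPM (linear axes, one per gene) in the 24 libraries, grouped by region and fraction. Points are libraries, wild-type in blue and rpS6P-/- in orange, and bars are the mean and SD (n = 3). Htr2c stands between 111 and 194 CPM in the Acb and between 29.9 and 55.9 CPM in the DS, and Htr4 and Htr7 are also higher in the Acb.

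Where levels are compared between genes, they are given as CPM per kilobase of the median coding transcript. In whole lysates of the wild-type Acb, Htr2c led with 28.5 CPM per kilobase. Htr4 (6.52), Htr1d (4.68), Htr7 (4.41), Htr1b (3.83) and Htr1a (3.09) followed, with overlapping neighbours among these, while Htr1a stood apart from Htr2a. Htr2a (1.44), Htr3a (1.02), Htr1f (0.645) and Htr6 (0.596) were lowest, again with overlapping neighbours. Htr2c was the only member that was separated from its next neighbour in all 8 groups, at 4.12 to 5.05 times the next member in the Acb and 1.49 to 3.31 times in the DS.

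In whole lysates of the wild-type DS the order was Htr2c (7.10 CPM per kilobase), Htr1d (3.62), Htr1b (2.88), Htr1a (1.68), Htr3a (1.44), Htr1f (1.36), Htr7 (1.36), Htr4 (1.24), Htr2a (1.24) and Htr6 (0.737). Of the 9 pairs of neighbours, 7 overlapped in both regions. The ranks below Htr2c depend on the transcript used, as for Htr4, whose coding transcripts differ in length. With the longest one (4661 bases, against a median of 1328), Htr4 was at 1.86 CPM per kilobase in wild-type Acb lysates. Htr2c remained first in all groups with longest transcripts, but 3 to 8 of the 10 members changed rank, depending on the group. In wild-type Acb lysates Htr7 moved from rank 4 to rank 2, at 4.38 CPM per kilobase against 27.5 for Htr2c. With median transcripts, the 10 genes summed to 52.5 to 57.8 CPM per kilobase in wild-type Acb lysates and to 21.7 to 24.1 in wild-type DS lysates. Htr2c gave 50.2 to 55.1% of this sum in the Acb and 28.8 to 35.5% in the DS. These shares would differ with the longest transcripts, and Htr5a, a further receptor gene with reads, is not in the sum.

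**Figure D2:**
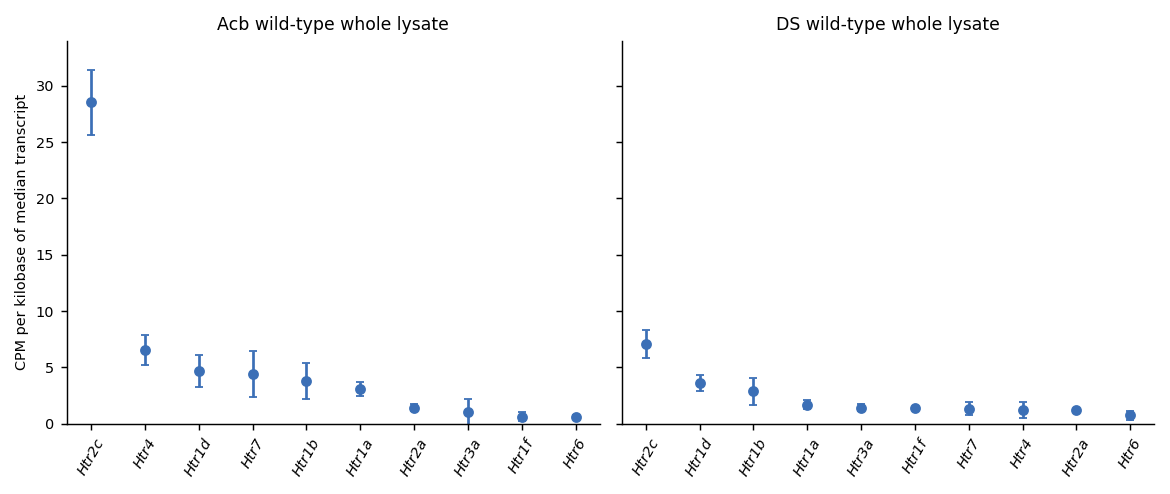
Receptor levels in CPM per kilobase of median transcript (linear axis, means and SD, n = 3) in whole lysates of wild-type Acb (left) and DS (right), each ordered from high to low. Htr2c leads in both regions, at 28.5 in the Acb and 7.10 in the DS, and most neighbours further down overlap.

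The comparison of Acb with DS asks which receptor mRNAs differ between the ventral and the dorsal part of the striatum. Htr2c, Htr4 and Htr7 were higher in the Acb in all 4 comparisons, in both genotypes and both fractions, and Htr1b was higher in the heavy fractions of wild-type mice. No member was called lower. Calls are genes with an adjusted p under 0.05 by edgeR's quasi-likelihood test, with Benjamini-Hochberg adjustment over all genes tested, and all 10 members passed the filter on low counts everywhere. The call was made for 3 of 10 members in wild-type lysates, against 12.7% of all genes, of which 6.54% were higher in the Acb. In wild-type heavy fractions it was 4 of 10, against 8.15% (4.72% higher). Knockin lysates gave 3 of 10, against 10.9% (4.84% higher), and knockin heavy fractions 3 of 10, against 18.6% (7.89% higher). The median log2 fold change of the members was 0.39, 1.09, 0.31 and 0.76 in these 4 comparisons, while that of all genes was 0.01, 0.03, 0.00 and 0.01. On the scaling of each comparison, groups did not overlap for 5, 6, 5 and 4 of the members, where the share over all genes was 27.4%, 27%, 26.2% and 36.7%. The Acb was the higher group for 4, 6, 4 and 4 members, against 13.8%, 15.9%, 11.9% and 18.9% of all genes. It was the lower group for Htr1f in wild-type lysates and Htr2a in rpS6P-/- lysates. Htr1a in wild-type heavy fractions is counted as not overlapping, although its values overlapped on the scaling of all libraries (15.8 CPM in the Acb and 16 CPM in the DS).

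Htr2c, which encodes a Gq-coupled receptor, lies on the plus strand of chromosome X (146962513 to 147197277, GRCm38) and has 4 coding exons. In wild-type lysates it was at 127, 125 and 150 CPM in the Acb and at 40.1, 30.1 and 29.9 CPM in the DS. The heavy fractions gave 111, 133 and 138 CPM against 34.6, 40.7 and 33.4 CPM. In rpS6P-/- mice the lysates were at 119, 117 and 115 CPM in the Acb and 51.8, 55.9 and 46.4 CPM in the DS. Every Acb library stood above every DS library. The log2 fold change between regions was 1.99 ± 0.15 (SE, n = 3 per group) in wild-type lysates and 1.87 ± 0.17 in wild-type heavy fractions (adjusted p = 1.34e-13 and 2.86e-06, edgeR). It was 1.18 ± 0.14 in rpS6P-/- lysates and 1.97 ± 0.19 in rpS6P-/- heavy fractions (adjusted p = 2.6e-08 and 7.47e-07, edgeR). Several small RNA genes, among them Mir448, Mir1264 and Snora35, lie within Htr2c on the same strand.

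Choroid plexus and cortical markers were set beside this difference. Ttr, the thyroid hormone carrier that defines choroid plexus, was at 3.42 to 13.8 CPM in wild-type Acb lysates. In rpS6P-/- Acb lysates Ttr was at 0 to 3.54 CPM. Htr2c was at 125 to 150 CPM and 115 to 119 CPM in the same libraries. These CPM are not scaled to transcript length and do not compare the levels of Ttr and Htr2c. Folr1 and Kcnj13, also of choroid plexus, stayed at or below 0.71 CPM in all libraries, and Slc4a5 was at 0 throughout the DS. The 12 genes of this list summed to 153 to 199 CPM in the Acb and 91.3 to 143 CPM in the DS. Most of this sum came from Enpp2, which oligodendrocytes also express. The 4 comparisons are given in the order wild-type lysates, wild-type heavy fractions, rpS6P-/- lysates and rpS6P-/- heavy fractions. In this order, 3 of 9, 5 of 9, 4 of 8 and 5 of 9 tested genes were higher in the Acb, against 6.54%, 4.72%, 4.84% and 7.89% of all genes. The number of choroid plexus genes called lower was 0 each time. The median log2 fold change of the tested genes was 1.62, 3.11, 2.27 and 1.57, with 8, 8, 6 and 6 genes above 0. Of 5 genes each, 3, 4, 3 and 3 cholinergic, 5, 5, 2 and 2 microglial and 3, 3, 2 and 3 astrocytic markers were also higher in the Acb in the 4 comparisons, as were 3, 2, 1 and 3 of 4 thalamic markers, while 0 of the endothelial and serotonin neuron markers were called. Oligodendrocyte markers were higher for 3, 1, 3 and 2 of 5 genes, with 1 lower in rpS6P-/- heavy fractions. Markers of medium spiny neurons were called both ways, with 2, 2, 2 and 1 of 10 higher and 4, 1, 3 and 3 lower, and so were those of GABA interneurons, with 2, 1, 2 and 1 of 6 higher and 2 lower each time. Cortical markers went the other way, with 7 of 8 lower in the Acb in all 4 comparisons. How far the tissue mix enters the regional differences of the receptors was not tested.

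**Figure D3:**
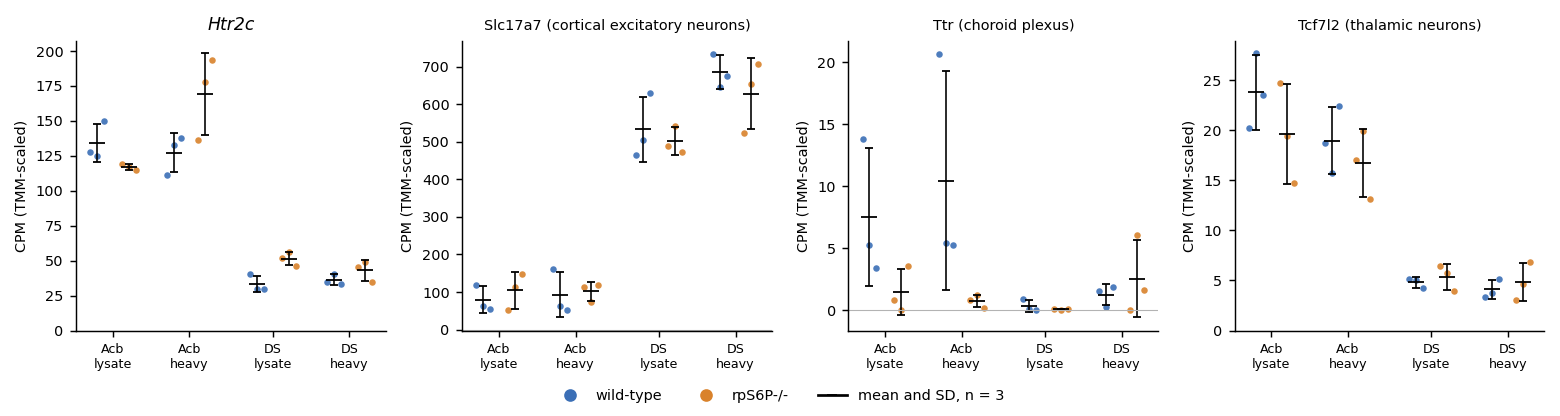
Htr2c beside markers of cortical excitatory neurons (Slc17a7), choroid plexus (Ttr) and thalamic neurons (Tcf7l2), in CPM on linear axes. Points are libraries and bars mean and SD (n = 3). Slc17a7 is at 464 to 734 CPM in the DS and at most 162 CPM in the Acb, Tcf7l2 is at 13.2 to 27.7 CPM in the Acb and 3.04 to 6.83 CPM in the DS, and Ttr is highest in wild-type Acb libraries.

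Htr7 encodes a Gs-coupled receptor and lies on the minus strand of chromosome 19 (35958734 to 36057507), with 4 coding exons. In wild-type lysates it was at 16.4, 6.25 and 17.8 CPM in the Acb and at 5.19, 4.99 and 2.27 CPM in the DS. Wild-type heavy fractions held 13, 13.7 and 15.1 CPM against 5.20, 2.45 and 4.45 CPM. The log2 fold changes were 1.68 ± 0.39 and 1.84 ± 0.33 (adjusted p = 0.00219 and 0.0016, edgeR), and no group overlapped with its counterpart. In rpS6P-/- mice the lysates were at 11.8, 17.5 and 12.3 CPM in the Acb and 7.63, 4.63 and 7.03 CPM in the DS, and the heavy fractions at 8.87, 14.1 and 10.6 CPM against 2.19, 3.6 and 7.90 CPM. The differences, 1.09 ± 0.36 and 1.28 ± 0.37 (adjusted p = 0.0382 and 0.0191, edgeR), were close to the threshold and kept their direction when 1 library was left out. For lysates the call was lost without any 1 of the 3 DS libraries (log2 fold changes of 1.24, 0.90 and 1.17 for replicates 1 to 3, adjusted p = 0.0634, 0.184 and 0.0754, edgeR) or without Acb replicate 2 (0.89, adjusted p = 0.164). For heavy fractions it was lost without DS replicate 1 (0.96), DS replicate 2 (1.13) or Acb replicate 2 (1.09), with adjusted p = 0.0674, 0.0822 and 0.0987 (edgeR). The change in Htr7 between genotypes of this regional difference was not called (-0.57 ± 0.54 in lysates and -0.53 ± 0.52 in heavy fractions, adjusted p = 0.991 and 0.706, edgeR).

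Htr1b encodes an autoreceptor and heteroreceptor of axon terminals. The gene lies on the minus strand of chromosome 9 (81628291 to 81633828) and has its whole coding sequence in 1 exon. A gene on the opposite strand, D430036J16Rik, overlaps it, and the counting used strand. In wild-type heavy fractions Htr1b was at 15.9, 14.0 and 12.4 CPM in the Acb and at 3.15, 6.99 and 6.59 CPM in the DS. The groups did not overlap, with a log2 fold change of 1.38 ± 0.32 (adjusted p = 0.011, edgeR), and the adjusted p was 0.0508 without Acb replicate 2. The other 3 comparisons gave 0.42, 0.20 and 0.47 for Htr1b, with overlapping groups and none called.

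Promoters were looked up for the members called higher in the Acb in at least 1 comparison. RefSeq sequence of GRCm38.p6 was at hand for Htr1b, Htr2c and Htr7. The bases before the start of transcription are given here, without any part that lies inside a transcript of GENCODE M21, and capitals mark a CCAAT box on either strand.
Htr2c, chrX:146962263-146962512, plus strand: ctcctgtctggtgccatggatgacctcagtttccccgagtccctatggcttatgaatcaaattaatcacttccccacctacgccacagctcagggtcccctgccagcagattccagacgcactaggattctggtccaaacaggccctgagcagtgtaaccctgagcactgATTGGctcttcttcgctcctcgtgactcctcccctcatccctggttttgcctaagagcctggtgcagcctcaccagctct
Htr1b, chr9:81633833-81634082, minus strand: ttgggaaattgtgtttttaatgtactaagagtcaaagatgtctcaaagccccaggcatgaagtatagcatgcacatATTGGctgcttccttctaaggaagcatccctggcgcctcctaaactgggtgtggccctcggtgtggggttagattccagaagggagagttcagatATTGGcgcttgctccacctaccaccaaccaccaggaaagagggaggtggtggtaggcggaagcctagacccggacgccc
Htr7, chr19:36057508-36057610, minus strand: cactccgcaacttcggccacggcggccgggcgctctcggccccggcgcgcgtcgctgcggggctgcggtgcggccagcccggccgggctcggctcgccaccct
Over the full 250 bases before the start, the Htr7 promoter was 82% GC and held 41 CpG, and 99.3% of 32851 mouse promoters had a lower GC content. Of these 250 bases, 103 are shown for Htr7, and the others lie inside a transcript of GENCODE M21. Htr2c stood at 55.6% GC with 5 CpG and Htr1b at 52.4% with 6 CpG, where the median over all promoters was 52.4% and 6. A CCAAT box (CCAAT) was found once in Htr2c, at 76 bases before the start, and in 2 copies in Htr1b, and 33.8% of all promoters had one. The GC box (GGGCGG, in 32.7% of all promoters), TATA box (TATAAA, in 12.4%) and the full cAMP response element (TGACGTCA, in 1.55%) were in none of these 3 windows. A half-site of the latter (TGACG, in 17.8%) was found once in Htr7, at 83 bases before the start, in the part inside the GENCODE M21 transcript. No motif of those searched was thus present in all 3 promoters, while Htr2c and Htr1b both held a CCAAT box.

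Htr4, which encodes a Gs-coupled receptor, had the largest regional fold change of the 10 genes in all 4 comparisons. In wild-type lysates it was at 6.83, 10.4 and 8.80 CPM in the Acb and at 0.856, 2.73 and 1.34 CPM in the DS (log2 fold change 2.39 ± 0.52, adjusted p = 0.000905, edgeR). In rpS6P-/- heavy fractions the values were 10.6, 9.40 and 10.6 CPM against 2.67, 2.75 and 0.843 CPM (2.27 ± 0.39, adjusted p = 0.000396, edgeR). The groups stood apart in all 4 comparisons. In wild-type heavy fractions, with 5.97, 4.17 and 11.2 CPM against 3.62, 0.768 and 0.741 CPM, the difference was 2.18 ± 0.60 (adjusted p = 0.0325, edgeR). This call was lost without DS replicate 2 (1.84), DS replicate 3 (1.78), Acb replicate 2 (2.45) or Acb replicate 3 (1.66), with adjusted p = 0.0811, 0.128, 0.0552 and 0.283 (edgeR). In rpS6P-/- lysates it was 2.37 ± 0.58 (adjusted p = 0.00379, edgeR), and 2.08 without Acb replicate 1 (adjusted p = 0.0699).

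The other 6 members were not called between regions. Htr1a, the inhibitory receptor that also serves as the autoreceptor of raphe neurons, was at 11.7, 16.8 and 13.2 CPM in wild-type Acb lysates and at 9.37, 5.74 and 7.48 CPM in wild-type DS lysates. These groups did not overlap, but the difference of 0.87 ± 0.32 did not pass (adjusted p = 0.0674, edgeR). Htr2a, the Gq-coupled receptor for which classical hallucinogens are agonists, gave 0.93 ± 0.39 in wild-type heavy fractions and -0.93 ± 0.37 in rpS6P-/- lysates (adjusted p = 0.176 and 0.11, edgeR). The first of these was called without DS replicate 2 (1.51, adjusted p = 0.021, edgeR), whose 9.22 CPM of Htr2a stood above the 2.69 and 4.49 CPM of the other DS libraries. Htr1d, a further inhibitory receptor, gave -0.67 ± 0.26 in rpS6P-/- heavy fractions (adjusted p = 0.084, edgeR), and was called without Acb replicate 1 (-0.93, adjusted p = 0.033, edgeR). Htr1f, Htr3a and Htr6 had 95% intervals more than 2 log2 units wide in each regional comparison.

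**Figure D4:**
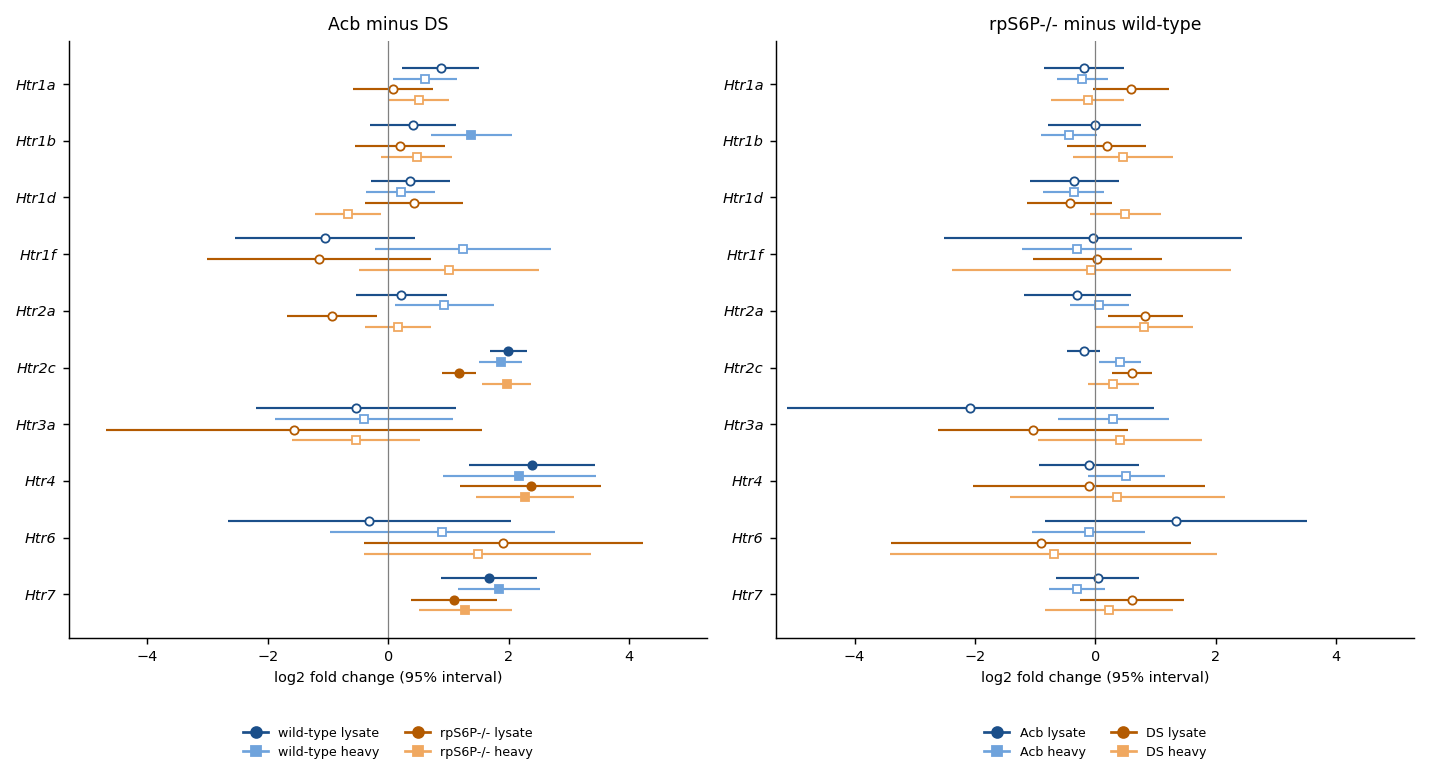
Log2 fold changes (points) and 95% intervals (lines) of the 10 receptors between Acb and DS (left, 4 comparisons) and between rpS6P-/- and wild-type (right, 4 comparisons). Filled points are called (adjusted p under 0.05). Htr2c, Htr4 and Htr7 lie to the right of 0 in all 4 regional comparisons and Htr1b in wild-type heavy fractions, while no point is filled for genotype.

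Genes of the serotonin system were read from fixed lists. Of 20 effectors, which include adenylyl cyclases, phospholipases C, potassium channels and protein kinases, none was higher in the Acb, and 8, 6, 8 and 2 were lower in the order of comparisons given above. Adcy1, a calcium-stimulated adenylyl cyclase, fell by 1.55, 1.27, 1.60 and 1.36 on the log2 scale. Kcnj6, a subunit of G protein-gated potassium channels, fell by 1.72, 1.58 and 2.36 in the first 3 comparisons, and Plcb1 fell by 0.91, 0.87 and 0.99. Kcnj3 in wild-type lysates (-1.83) and Kcnj9 in rpS6P-/- heavy fractions (-0.76) were further calls. As given above, 7 of 8 cortical markers were lower in the same comparisons, and their part in these changes was not tested. Among 10 G protein alpha subunits, Gnai2 was higher (0.63, 0.66 and 0.71) and Gnao1 lower (-0.58, -0.57 and -0.52) in the first 3 comparisons, and Gnal was higher in rpS6P-/- heavy fractions (0.52).

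From the list for synthesis, transport and breakdown, 4 of 9, 2 of 8, 1 of 8 and 2 of 8 tested genes were higher in the Acb. Of all genes, 6.54%, 4.72%, 4.84% and 7.89% were. Ddc, the decarboxylase shared by serotonin and dopamine synthesis, rose in all 4 comparisons (1.62, 1.43, 1.40 and 1.41). Slc29a4, a low-affinity monoamine transporter, was higher in wild-type mice (2.15 in lysates and 2.22 in heavy fractions). Slc18a2, the vesicular monoamine transporter, was at 2.22, 8.63 and 1.59 CPM in wild-type Acb lysates and had 0 reads in the 3 DS lysates. Tph1, which encodes a tryptophan hydroxylase, was the single lower call (-3.23 in rpS6P-/- heavy fractions, with all values at or below 1.80 CPM). Of the 12 measured genes for receptor partners, desensitisation and RNA editing, 1, 1, 0 and 3 were higher and 3, 2, 1 and 3 lower. S100a10, a binding partner of Htr1b and Htr4 proteins, was lower in the Acb in both heavy comparisons (-0.97 and -1.5).

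Other receptor genes of the family were also in the table. Htr5a, with 4347 reads and up to 17.6 CPM, was measured as well as several members and was called in no comparison, whereas Htr5b, Htr3b and Htr2b had 106, 35 and 4 reads in all.

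In the comparison of genotypes, which asks whether the loss of rpS6 phosphorylation changes receptor mRNAs, none of the 10 receptors was called in either region or fraction. By edgeR, 0%, 0.0065%, 0.044% and 0.122% of all genes were called in Acb heavy fractions, Acb lysates, DS heavy fractions and DS lysates. DESeq2 called 0 members in the same 4 comparisons, and 623, 1, 4 and 35 of all genes. At an unadjusted p under 0.05 there were 1, 0, 1 and 2 members. On the scaling of each comparison, groups did not overlap for 1, 2, 0 and 3 members, where the share of all genes was 25%, 8.33%, 11.1% and 13.8%. The members had a median log2 fold change of -0.16, -0.15, 0.33 and 0.11.

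Htr2c came closest. In DS lysates it was at 51.8, 55.9 and 46.4 CPM in rpS6P-/- mice and at 40.1, 30.1 and 29.9 CPM in wild-type mice, a log2 fold change of 0.60 ± 0.17 (95% interval 0.27 to 0.94, adjusted p = 0.138, edgeR). All 3 knockin libraries were above all wild-type libraries. In Acb heavy fractions it was at 136, 178 and 194 CPM against 111, 133 and 138 CPM (0.41 ± 0.17, adjusted p = 0.174, edgeR), where the lowest knockin library was just below the highest wild-type one on the scaling of all 24 libraries and just above it on the scaling of these libraries alone. Acb lysates gave -0.20 ± 0.14 (95% interval -0.47 to 0.08), with 119, 117 and 115 CPM against 127, 125 and 150 CPM. Htr2a in DS lysates was at 14.0, 9.60 and 13.8 CPM in rpS6P-/- mice and at 7.28, 6.90 and 6.64 CPM in wild-type mice (0.83 ± 0.31, adjusted p = 0.349, edgeR). For Htr1a, Htr1b, Htr1d, Htr2a, Htr2c and Htr7 the 95% intervals stayed within 1.62 log2 units of 0 in all 4 comparisons, while those of Htr3a reached to -5.13 in Acb lysates and those of Htr6 to 3.52.

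Since the regional difference of Htr2c was 1.99 in wild-type and 1.18 in rpS6P-/- lysates, the change in this difference was tested after it had been seen. It was -0.80 ± 0.20 in lysates (95% interval -1.20 to -0.40, unadjusted p = 0.000173), which did not pass over all genes (adjusted p = 0.404, edgeR). In heavy fractions it was 0.13 ± 0.25 (adjusted p = 0.882, edgeR). None of the 10 members was called for this change in lysates or heavy fractions, where 0.00611% and 0.00592% of all genes were, and 2 and 1 members had an unadjusted p under 0.05. DESeq2 called 0 members in both.

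Polysome loading was read from heavy fractions against whole lysates of the same region and genotype. Few receptor mRNAs were called. In wild-type mice 0 of 10 members were called in the Acb and 0 of 10 in the DS by edgeR, against 25.9% and 24.3% of all genes. DESeq2 also called 0, and 0 and 1 members had an unadjusted p under 0.05. All members but Htr2c were at or below 22.0 CPM in every library. Their standard errors in these wild-type tests ran from 0.24 to 1.17 on the log2 scale. The part of low read support in the low number of calls was not tested. In rpS6P-/- mice 1 member was called in the Acb, against 17.2% of all genes (7.7% higher), and 1 in the DS, against 28.6% (13.8% higher). Bc1 moved with this comparison, at no more than 3.85% of the reads in heavy fractions and at least 15.2% in lysates.

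Htr1d was higher in heavy fractions of the rpS6P-/- DS. It was at 12.4, 16.3 and 16 CPM in heavy fractions and at 6.03, 4.97 and 8.75 CPM in lysates, with no overlap (1.14 ± 0.31, adjusted p = 0.00281, edgeR). The wild-type DS gave 0.29 ± 0.33 (adjusted p = 0.608, edgeR), and the difference between genotypes in this loading was 0.89 ± 0.46 (adjusted p = 1, edgeR). The call kept its side of the threshold when any 1 library was left out, with log2 fold changes from 0.97 to 1.43 over all alternatives. Its coding sequence lies in a single exon on the plus strand of chromosome 4 (136423524 to 136444398).

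Htr2c was higher in heavy fractions than in lysates of the rpS6P-/- Acb (136, 178 and 194 CPM against 119, 117 and 115 CPM), by 0.52 ± 0.17 (adjusted p = 0.0309, edgeR). In the wild-type Acb the difference was -0.08 ± 0.15. The call was lost without heavy replicate 2 (0.48) or 3 (0.41) or lysate replicate 1 (0.52), 2 (0.50) or 3 (0.49), with adjusted p = 0.113, 0.0648, 0.0949, 0.109 and 0.1 (edgeR). The difference between regions in this loading was 0.83 ± 0.23 in rpS6P-/- mice (adjusted p = 0.0204, edgeR), where 5.87% of all genes were called (1.93% higher), and -0.19 ± 0.23 in wild-type mice, where 0% were. It was the only member called for this in rpS6P-/- mice, and none of 10 was in wild-type mice (edgeR, with 1 at an unadjusted p under 0.05 and 0 by DESeq2). The regional call was lost without DS replicate 2 (0.87) or 3 (0.72) or Acb replicate 2 (0.79) or 3 (0.70), each time with both fractions left out (adjusted p = 0.0712, 0.148, 0.0785 and 0.112, edgeR). After removal of the trend with transcript length it was 0.54 (adjusted p = 0.19, edgeR).

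The loading of Htr2c by genotype was 0.61 ± 0.22 in the Acb and -0.34 ± 0.27 in the DS (adjusted p = 0.302 and 1, edgeR), and no member was called in either region, where 0% and 0% of all genes were. With another test (Xtail), the paper reported genes of altered translational efficiency in both regions, most of them in the Acb. The lack of calls here therefore does not show that loading was unchanged. DESeq2 called 0 members too, and 1 and 0 members had an unadjusted p under 0.05. Tested after it had been seen, the difference between these 2 values was 0.90 ± 0.32 for Htr2c (unadjusted p = 0.00644, adjusted p = 0.324, edgeR), with none of 10 members and 0% of all genes called. At an unadjusted p under 0.05 there was 1 member, and DESeq2 called 0.

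The 8 remaining members were called in no loading comparison, although some of the scarce ones had groups that did not overlap, such as Htr3a in the rpS6P-/- Acb (2.24 ± 1.03, adjusted p = 0.142, edgeR), with 95% limits of 0.13 and 4.34. Htr1a was at 9.65, 16 and 12.6 CPM in heavy fractions and 9.37, 5.74 and 7.48 CPM in lysates of the wild-type DS (0.72 ± 0.33, adjusted p = 0.114, edgeR). With the trend on transcript length removed it was called (1.13, adjusted p = 0.00815, edgeR). Htr1f did not pass in the rpS6P-/- DS, with 2.07, 1.12 and 0.355 CPM in heavy fractions and 2.90, 4.90 and 3.13 CPM in lysates (-1.67 ± 0.73, adjusted p = 0.0794, edgeR). Without heavy replicate 1 this was -2.31 (adjusted p = 0.0455, edgeR). Its loading difference between regions in rpS6P-/- mice, 2.18 ± 1.2, was called only without the Acb libraries of replicate 1 (4.46, adjusted p = 0.0485, edgeR).

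**Figure D5:**
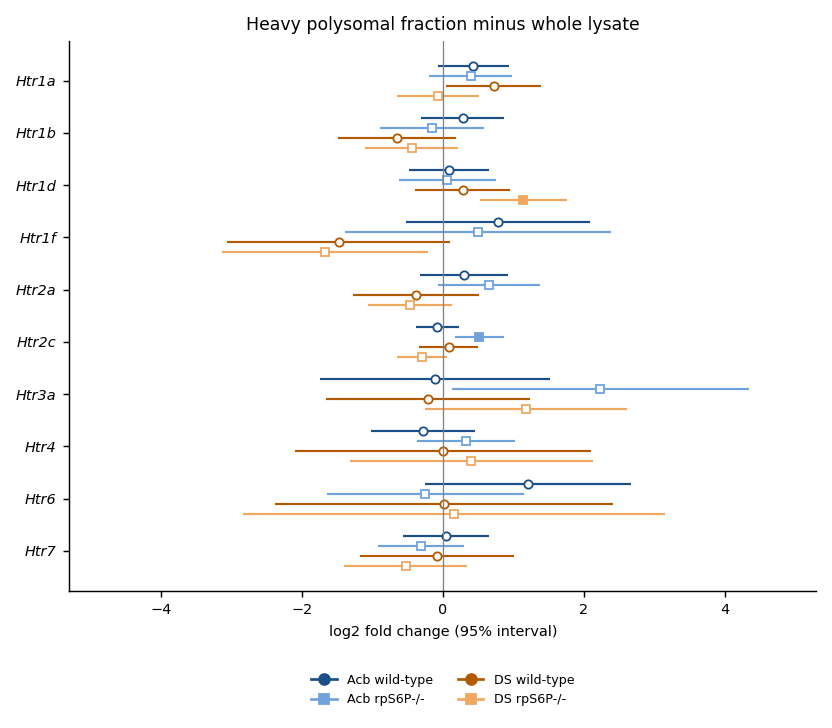
Log2 fold changes (points) and 95% intervals (lines) of the 10 receptors between heavy polysomal fractions and whole lysates in the 4 combinations of region and genotype. Filled points are called (adjusted p under 0.05), which are Htr2c in the rpS6P-/- Acb (0.52) and Htr1d in the rpS6P-/- DS (1.14).

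The signalling lists were read in the same comparisons, in which 25.9%, 24.3%, 17.2% and 28.6% of all genes were called. Of the 20 effectors, 7, 6, 4 and 10 were lower in heavy fractions of the wild-type Acb, wild-type DS, rpS6P-/- Acb and rpS6P-/- DS, and 2, 1, 2 and 1 were higher. Plcb1 in the wild-type Acb (-1.07), wild-type DS (-1.08) and rpS6P-/- DS (-1.22) and Itpr1 in the rpS6P-/- Acb (-0.61) were among the largest falls. G protein alpha subunits went the other way, with 3, 4, 4 and 3 of 10 higher and 0 lower, led by Gnai1 in the Acb of both genotypes (0.57 and 0.78), Gnas in the wild-type DS (0.60) and Gnai2 in the rpS6P-/- DS (0.55). Adar, an RNA-editing enzyme, was lower in all 4 comparisons (-1.0, -0.82, -0.55 and -1.17), and S100a10 was higher in 3 of them (1.05, 1.43 and 1.26, not called in the rpS6P-/- Acb). Between genotypes, 0 genes of these lists were called in any of the 4 comparisons.

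The genes whose pattern over the 24 libraries was most like that of a member were ranked by Pearson's r of log2 CPM among 10920 genes. For Htr2c these were Sparc (r = 0.98) and Gabrg1 (r = 0.97), a subunit of the GABA-A receptor. For Htr4 they were Gpr149 (r = 0.93) and Oprl1 (r = 0.91), the nociceptin receptor. Htr7 came with Tcf7l2 (r = 0.85), which is also the leading gene of the thalamic list, and with Slc29a4 (r = 0.84). The pairs share libraries, region and depth, and after removal of the group means r was 0.47, 0.58, 0.67, 0.66, 0.33 and 0.52 in the same order. The other 7 members had 2 nearest genes each at r = 0.68 to 0.82, led by Vstm2a for Htr1a, AI504432 for Htr1b, Cyb5d2 for Htr1d, Kctd16 for Htr1f, Arhgap5 for Htr2a, Wwox for Htr3a and Tmem104 for Htr6.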

How the data were processed

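RNA was measured in 24 libraries by stranded, poly-A selected, single-end sequencing. The deposited values are raw read counts per gene. According to the methods, the authors aligned reads to mm10 with TopHat2 2.0.13 and Bowtie2 2.2.3 and counted them with HTSeq 0.6.1p1, after several runs because of bacterial contamination. Here, edgeR 4.0.16 (R 4.3.3) was used with TMM scaling, quasi-likelihood tests, at least 15 reads summed over the libraries compared and Benjamini-Hochberg adjustment over all genes. Levels are CPM on 1 TMM scaling of all libraries. Transcript lengths and positions came from GENCODE M21 (GRCm38), not the annotation used for counting. DESeq2 1.42.0 and the alternatives of the closing section were computed, and scripts were tested on simulated data.

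Groups followed the sample labels. By the methods, input and heavy fraction were taken from the same pooled tissue, so that lysate and heavy libraries of 1 number share mice. Deviations from group means of such pairs had r from -0.04 to 0.09 (12 pairs, 10920 genes). Depth was 9280589 to 34703044 assigned reads. The members, the lists and 3 added comparisons (genotype by region in lysates and in heavy fractions, and loading by genotype and region) were chosen with earlier results of these data known. All members are named. From each pathway list, at most 3 called genes with the largest change per comparison are named, plus repeats of these in other comparisons, and from cell type lists the most abundant gene and genes set beside a member. Folr1, Kcnj13, Enpp2, Slc4a5 and Htr5a were named after their values were seen.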

Additional observations from a re-analysis of the deposited data

Results flagged for a closer look

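The loading of Htr2c differed between regions in rpS6P-/- mice, by 0.83 on the log2 scale in a test of the difference itself (adjusted p = 0.0204, edgeR), and this call was lost without 4 of the 6 pairs of libraries, as given above. Opposite changes without overlap were looked for in all 10 members over several pairs of comparisons. For the effect of genotype on Htr2c, all 3 rpS6P-/- libraries were below wild-type in Acb lysates (-0.20) and above it in DS lysates (0.60) and, on the scaling of that comparison only, in Acb heavy fractions (0.41). Groups did not overlap, in either direction, for 8.33%, 13.8% and 25% of all genes in these 3 comparisons. None of these 3 effects was called (adjusted p = 1, 0.138 and 0.174, edgeR). The difference of the first pair, between regions, was -0.80 (adjusted p = 0.404, edgeR), and that of the pair in the Acb, between fractions, was 0.61 (adjusted p = 0.302, edgeR).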

How the results depend on the processing

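The number of members called between regions when 1 library was left out was 3 to 3 in wild-type lysates, 2 to 4 in wild-type heavy fractions, 2 to 3 in rpS6P-/- lysates and 2 to 4 in rpS6P-/- heavy fractions. Between fractions it was 0 to 1 in the rpS6P-/- Acb and 1 to 2 in the rpS6P-/- DS, and for loading by region in rpS6P-/- mice 0 to 2. With the transcript length trend removed, 1 member was called between fractions in the wild-type DS and 0 for loading by region in rpS6P-/- mice. With a replicate block, 5 members were called in wild-type heavy fractions between regions, Htr2a being added (1.08, adjusted p = 0.026, edgeR), and the other counts of members did not change. Except for lysate and heavy fraction, samples share only a number: deviations of same-numbered samples had r from -0.35 to 0.37 between genotypes and from -0.31 to 0.27 between regions (12 pairs each). With all 24 libraries in one fit, Htr7 was not called between regions in rpS6P-/- lysates (1.07, adjusted p = 0.0897, edgeR), and with the length trend removed neither in rpS6P-/- heavy fractions (1.02, adjusted p = 0.0554), where Htr1d was (-0.87, adjusted p = 0.0216). Over all alternatives Htr2c was called between regions, at 1.90 to 2.15, 1.54 to 1.96, 1.12 to 1.24 and 1.69 to 2.08. Between genotypes in Acb heavy fractions, the count over all genes was 0 with edgeR but 623 with DESeq2, 549 without a filter, 813 with all 24 libraries and 98 with the replicate block, and in the wild-type regional comparison of heavy fractions the block gave 2247 against 1316. The causes were not tested. Htr1f, Htr3a and Htr6 had few reads and wide intervals, and the parts of depth and of spread between replicates in this were not told apart.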
